A study of Mus musculus with 2 samples.

Results

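Lrg1-high alveolar type 2 (AT2) cells are lung epithelial cells with abundant RNA of surfactant protein C (Sftpc) and of the secreted glycoprotein Lrg1. They numbered 988 of the 6983 cell barcodes in the series, 964 in the library labelled NAPH and 24 in the library labelled Control. Members were chosen by measured levels in unique molecular identifiers (UMIs, counted transcripts) per 10,000 UMIs of the barcode. A member had at least 500 of Sftpc and at least 20 of Lrg1, and below 1000 of the club cell gene Scgb1a1. It also had below 10 of the ciliary genes Foxj1, Ccdc153 and Tmem212 summed, below 5 of Areg and Sprr1a summed, and fewer than 3 UMIs of the cycling genes Mki67 and Top2a. The comparison cells, called Lrg1-low, met every other criterion and had Lrg1 below 5. AT2-gated cells are all cells that met the criteria other than Lrg1, and those with Lrg1 between 5 and 20 are called Lrg1-intermediate. The series profiled flow-sorted Epcam+ epithelial cells from the lungs of C57BL/6 mice with the 10x Chromium 3' assay. It set 1 library after NAPH-induced airway injury against 1 Control library. The sources used here do not give the dose, the time after injury, the number and age of the animals or whether animals were pooled. With 1 library per group there was no replicate check, so no test was made, and intervals in brackets (95%) cover counting error only.

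AT2 cells make and secrete pulmonary surfactant, store it in lamellar bodies and act as progenitors of the alveolar epithelium. They also take part in innate defence, releasing lysozyme, collectins and chemokines. Lrg1, leucine-rich alpha-2-glycoprotein, is best known as an acute phase protein of the liver whose transcription is raised by interleukin-6 type cytokines acting through STAT3. Il33 is a nuclear alarmin released on cell damage that acts on type 2 lymphoid cells. Scd1 introduces the double bond into stearate and palmitate, and Pmvk phosphorylates phosphomevalonate in the pathway to cholesterol.

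Lrg1-high cells made up 40% (38.1 to 42.0) of the 2407 AT2-gated cells of NAPH, against 1.34% (0.863 to 1.99) of the 1785 AT2-gated cells of Control. The ratio of these shares was 29.8 (19.9 to 46.7). Because Lrg1 itself set the members, these shares describe how Lrg1 was distributed. Among the members the lowest, median and highest Lrg1 levels were 20, 37.0 and 150 UMIs per 10,000 in NAPH, against 20.4, 24.3 and 53.3 in Control. In NAPH, 180 cells lay just inside the threshold between 20 and 25 (median 22.4), and 202 lay just outside it between 15 and 20 (median 17.1). In Control, 13 cells lay just inside (median 21.2) and 13 just outside (median 17.0). The number of cells declined with increasing Lrg1 without a gap at 20 in either library, so the class is a range of Lrg1 levels and not a separate mode. Members with Lrg1 under 25 made up 18.7% in NAPH and 54.2% in Control. No UMI of Lrg1 was found in 178 AT2-gated cells of NAPH and in 1050 of Control.

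**Figure D1:**
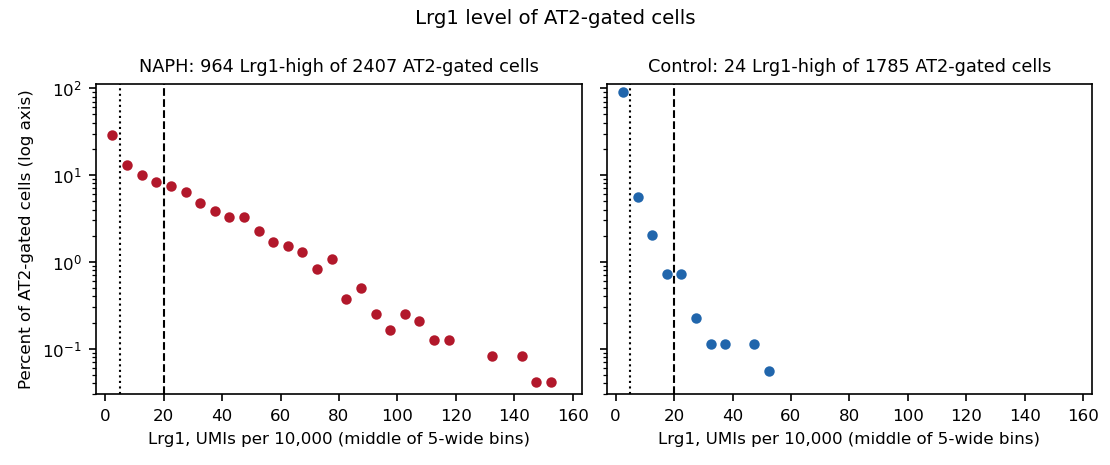
Percent of AT2-gated cells (log axis) in bins of 5 Lrg1 UMIs per 10,000, NAPH on the left and Control on the right. The dashed line marks the minimum of 20 for Lrg1-high cells and the dotted line the maximum of 5 for Lrg1-low cells. NAPH cells reach 150 and Control cells 53.3, and neither library shows a gap at 20.

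Of all barcodes with Lrg1 of at least 20, 94.2% of the 1023 in NAPH and 100% of the 24 in Control were members. Of the 1019 such cells of NAPH that passed the Sftpc minimum, 50 were set aside for Areg and Sprr1a, 2 for Scgb1a1, 2 for ciliary genes and 1 for cycling genes. The other 4 barcodes were below the Sftpc minimum. Members held 73.5% of all Lrg1 UMIs of the NAPH library, against 19.8% of those of the Control library, while holding 26.4% and 0.519% of the UMIs of all genes in NAPH and Control.

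All 15 AT2 markers were detected in the members of both libraries. Sftpc is one of them and part of the rule, so the sums leave it out. The other 14 summed to 107147 CPM (UMIs summed over the cells of a group and scaled to a total of 1000000) in Lrg1-high cells of NAPH, against 93838 CPM in its Lrg1-low cells and 23011 CPM in its club gate. In Control they summed to 110458 CPM in Lrg1-high cells and 100769 CPM in Lrg1-low cells, against 9399 CPM in the club gate. Sftpc itself was at 202805 CPM in Lrg1-high and 218952 CPM in Lrg1-low cells of NAPH. The label's other markers, Il33 and Scd1, were higher in Lrg1-high than in Lrg1-low cells in both libraries, while the ratio of Pmvk was 2.02 in NAPH and 1.05 in Control. The 8 club cell markers other than Scgb1a1, which the rule caps, summed to 2649 CPM in Lrg1-high and 4180 CPM in Lrg1-low cells of NAPH. In Control these summed to 2918 CPM in Lrg1-high and 4021 CPM in Lrg1-low cells. Cbr2 made up most of the NAPH sums, at 2290 CPM in Lrg1-high and 3066 CPM in Lrg1-low cells. Scgb3a1 was at 135 and 677 CPM in the same groups. The 7 goblet cell markers summed to 12.6 CPM in Lrg1-high and 59.9 CPM in Lrg1-low cells of NAPH. In Control the goblet sums were 18.5 CPM (4 UMIs) in Lrg1-high and 22.9 CPM in Lrg1-low cells. Summed leukocyte markers were at 18.6 CPM in Lrg1-high and 34.8 CPM in Lrg1-low cells of NAPH, with 23.1 and 35.3 CPM in those of Control. The part of such other-cell RNA in the results was not tested.

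Depth differed somewhat between the groups. The median cell of NAPH had 10276 UMIs when Lrg1-high and 8648 when Lrg1-low, and that of Control 9360.5 when Lrg1-high and 7629 when Lrg1-low. Members held 10145690 UMIs in NAPH and 216617 in Control. The median mitochondrial share was 3.18% in Lrg1-high and 3.24% in Lrg1-low cells of NAPH, and 4.05% and 3.56% in those of Control. The libraries shared 14 barcodes, of which 4 were Lrg1-high in a library. Doublet scores ranked 28 NAPH members (2.90%) and 0 Control members among likely doublets.

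Within NAPH, Lrg1-high cells had higher levels of acute phase genes, of Il33 and of the cyclooxygenase Ptgs1 than Lrg1-low cells. Of the gene lists, 5 of 12 AT1 genes and 5 of 14 matrix genes were lower. At the threshold of a 1.5-fold ratio, 4.33% of the 9448 genes measured (at least 50 UMIs over both groups) were higher and 5.74% were lower. The median gene differed by -0.03 on the log2 scale. Of the genes past the threshold 43.0% were higher, and 53.8% were with edgeR's TMM scaling. These genes, like Lrg1, come from the cells that the rule selected, so the ratios describe the groups. The 15 highest genes outside the rule at 100 CPM or more, and outside the reach of free RNA, ranged from Dmkn at 6.07 to Pmvk at 2.02. A gene was held to be within reach of free RNA where its level was below 0.2 times that in another cell class of the same library.

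Dmkn, which encodes the secreted epithelial protein dermokine, was at 212 CPM in Lrg1-high and 34.8 CPM in Lrg1-low cells of NAPH, a ratio of 6.07 (5.28 to 7.02). Its UMIs were found in 48.7% of Lrg1-high and 17.3% of Lrg1-low cells, so its median was 0 in both groups. With each barcode thinned to 3500 UMIs the shares were 31.6% in Lrg1-high and 9.81% in Lrg1-low cells, against 2.23% of leukocyte-gated barcodes, which should lack the gene. Dmkn was also at 629 CPM in the ciliated gate of NAPH. Hdc, the enzyme that makes histamine from histidine, had a lowest, median and highest level of 0, 2.72 and 58.1 UMIs per 10,000 in Lrg1-high cells and 0, 0 and 24.2 in Lrg1-low cells. The groups overlapped, and the sums stood at 406 CPM in Lrg1-high and 118 CPM in Lrg1-low cells, a ratio of 3.46 (3.19 to 3.75). Hdc too was at 883 CPM in the ciliated gate. Mfsd2a, a transporter of lysophosphatidylcholine, was at 104 CPM in Lrg1-high and 27.9 CPM in Lrg1-low cells, a ratio of 3.73 (3.17 to 4.41). Ptgs1, the constitutive cyclooxygenase, had 0, 3.45 and 19.3 UMIs per 10,000 as lowest, median and highest level in Lrg1-high cells and 0, 1.04 and 11.3 in Lrg1-low cells. Its sums gave a ratio of 3.29 (3.04 to 3.55).

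Acute phase and iron-binding defence genes stood out among the gene lists. Of 13 measured, 10 were higher and 3 lower by at least 1.5-fold in Lrg1-high cells of NAPH, with a median log2 ratio of 1.13. The siderophore-binding lipocalin Lcn2 was the most abundant of them outside the free-RNA range, with 1.20, 33.4 and 217 UMIs per 10,000 as lowest, median and highest level in Lrg1-high cells and 0, 10.0 and 107 in Lrg1-low cells. The quartiles of Lcn2 did not overlap, with 21.5 as the lower one in Lrg1-high cells and 18.5 as the upper one in Lrg1-low cells, although single cells did. Its ratio was 2.85 (2.78 to 2.91). Itih4, an acute phase heavy chain of the inter-alpha-trypsin inhibitor family, was at 453 CPM in Lrg1-high and 139 CPM in Lrg1-low cells, a ratio of 3.25 (3.03 to 3.5). Slpi, a secreted inhibitor of leukocyte proteases, was at 370 CPM in Lrg1-high and 143 CPM in Lrg1-low cells. The lipopolysaccharide-sensing proteins Cd14 and Lbp had ratios of 2.19 (1.93 to 2.5) and 2.04 (1.82 to 2.29). The haemoglobin scavenger Hp was at 1628 CPM in Lrg1-high and 913 CPM in Lrg1-low cells, but at 8562 CPM in the club gate, within reach of free RNA.

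Fgg and the orosomucoids were rare. Fgg, the gamma chain of fibrinogen, was at 23.4 CPM in Lrg1-high cells (237 UMIs) and 1.30 CPM in Lrg1-low cells (8 UMIs), a ratio of 18.0 (9.0 to 42.2). Orm1 and Orm2 encode near-identical orosomucoids, among which the splitting of reads is uncertain. Orm1 was at 11.2 CPM in Lrg1-high and 3.24 CPM in Lrg1-low cells, a ratio of 3.47 that was 1.99 after thinning to 3500 UMIs and 6.11 with Lrg1-low cells below 2. Fgl1, a liver-type fibrinogen-like protein on the STAT3 list, was at 7.89 CPM in Lrg1-high cells (80 UMIs) and 0.810 CPM in Lrg1-low cells (5 UMIs), a ratio of 9.74 (4.0 to 30.8), and of 25.7 with Lrg1-low cells below 2. Orm2 had 57 UMIs in Lrg1-high cells and 1 UMI in Lrg1-low cells, a ratio of 34.7 (5.98 to 1394). The serum amyloid Saa3 was lower, at 2.07 CPM in Lrg1-high and 5.34 CPM in Lrg1-low cells, as were the copper oxidase Cp and lactoferrin Ltf, both within reach of free RNA. In Lrg1-low cells, however, 1 cell held 29 of the 33 Saa3 UMIs. Likewise 1 cell held 38 of the 59 Ltf UMIs, and 1 held 31 of the 70 Cp UMIs. UMIs of Saa3, Ltf and Cp were found in 0.934%, 5.19% and 4.15% of Lrg1-high cells. The shares of Lrg1-low cells were 0.722%, 2.16% and 4.91%. Saa3 turned direction, with a ratio of 3.37, when Lrg1-low cells were taken below 2. Thinning to 3500 UMIs gave 4.19 for Orm2, 2.52 for Ltf and 0.882 for Cp. Ratios after thinning, here and below, come from groups gated again on the thinned counts, so their cells differ in part.

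Alarmins, cytokines and chemokines had 7 higher and 2 lower of 13 measured genes in Lrg1-high cells of NAPH, with a median log2 ratio of 0.66. Il33 had 0, 8.16 and 47.0 UMIs per 10,000 as lowest, median and highest level in Lrg1-high cells and 0, 2.30 and 36.4 in Lrg1-low cells. Its sums were 1014 CPM in Lrg1-high and 360 CPM in Lrg1-low cells, a ratio of 2.82 (2.69 to 2.95). With each barcode thinned to 3500 UMIs, fewer than any member had, Il33 was found in 88.9% of Lrg1-high and 56.7% of Lrg1-low cells of NAPH, against 8.04% of barcodes in its leukocyte gate, whose median depth before thinning was 7846.5 UMIs. Before thinning, the shares were 97.2% in Lrg1-high and 82.3% in Lrg1-low cells. Il6 was rare, at 18.5 CPM in Lrg1-high and 3.40 CPM in Lrg1-low cells, a ratio of 5.45 (3.46 to 9.01). The ratio of Il6 was 15.1 with Lrg1-low cells taken below 2 instead of 5. The abundant lungkine Cxcl15 was at 8815 CPM in Lrg1-high and 6346 CPM in Lrg1-low cells. Cxcl16, a chemokine for CXCR6-bearing lymphocytes, was lower, at 41.1 CPM in Lrg1-high and 62.5 CPM in Lrg1-low cells.

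**Figure D2:**
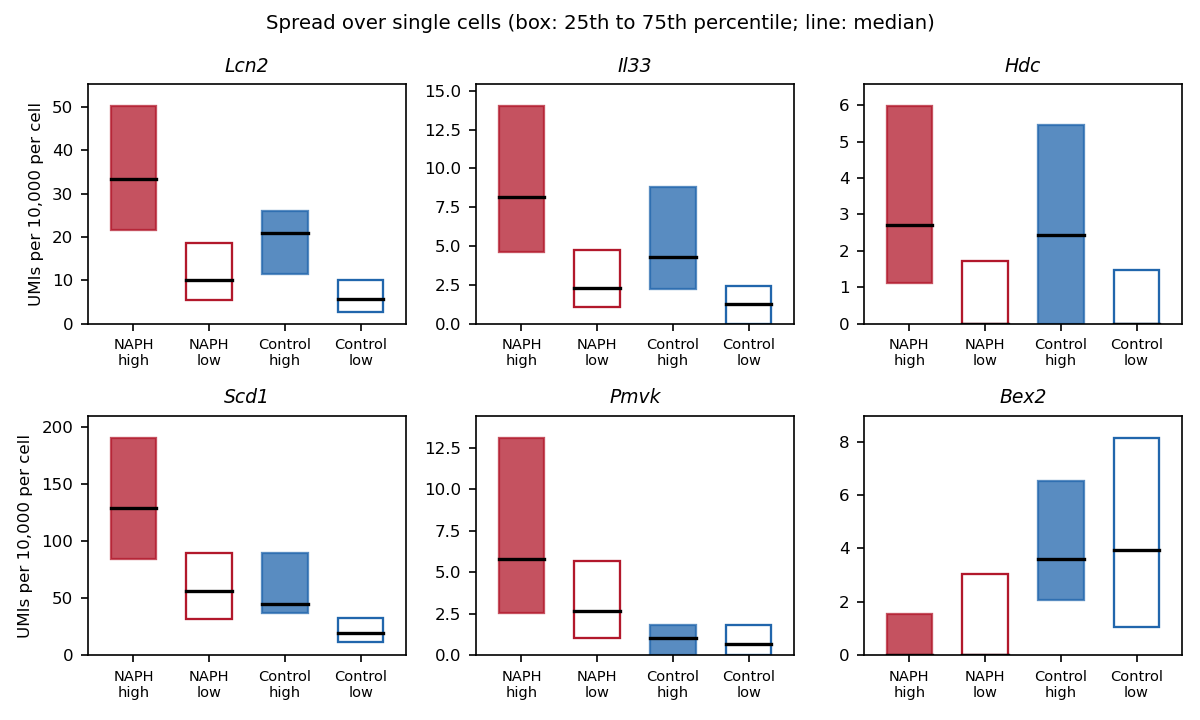
UMIs per 10,000 per cell for 6 genes in Lrg1-high (filled) and Lrg1-low (open) cells of NAPH and Control. Boxes span the 25th to 75th percentile of cells and black lines mark medians. Lcn2 and Il33 medians are higher in Lrg1-high cells of both libraries, Pmvk is high in NAPH, and Bex2 is lower in NAPH than in Control in both groups.

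Genes linked with type 2 responses and with prostaglandins gave mixed counts. Of 8 measured type 2 genes, 4 were higher and 2 lower. Slc26a4, the anion exchanger pendrin, was at 80.8 CPM in Lrg1-high and 35.1 CPM in Lrg1-low cells of NAPH, a ratio of 2.30 (1.98 to 2.68). Retnla was at 2002 CPM in Lrg1-high and 681 CPM in Lrg1-low cells, yet at 17529 CPM in the club gate, within reach of free RNA, and its ratio of 2.94 was 5.89 with Lrg1-low cells below 2. A single Lrg1-low cell held 1103 of the 4207 Retnla UMIs of its group, and a single Lrg1-high cell 1039 of 20316. Chia1, the acidic mammalian chitinase, was lower, at 215 CPM in Lrg1-high and 346 CPM in Lrg1-low cells. Of 9 prostaglandin and leukotriene enzymes, 2 were higher and 1 lower. The higher ones were Ptgs1 and the next enzyme Ptges, a prostaglandin E synthase at 82.8 CPM in Lrg1-high and 40 CPM in Lrg1-low cells. The inducible cyclooxygenase Ptgs2 had a ratio of 0.907 (0.710 to 1.16), which was 0.558 after thinning.

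Of 16 fatty acid synthesis genes measured in NAPH, 4 were higher by at least 1.5-fold and 0 lower, where 4.33% of all genes were higher. Their median log2 ratio was 0.39, beside -0.03 for all genes. Scd1, the stearoyl-CoA desaturase, had 11.4, 129 and 417 UMIs per 10,000 as lowest, median and highest level in Lrg1-high cells and 3.52, 56.0 and 334 in Lrg1-low cells. Its sums were 13914 CPM in Lrg1-high and 6957 CPM in Lrg1-low cells, a ratio of 2.0 (1.98 to 2.02). Fasn, the fatty acid synthase, was at 1170 CPM in Lrg1-high and 656 CPM in Lrg1-low cells. The elongase Elovl1 was at 2144 CPM in Lrg1-high and 1221 CPM in Lrg1-low cells. Srebf1, which encodes the transcription factor that drives these genes in liver, had a ratio of 1.05 (0.929 to 1.19).

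Of 24 cholesterol synthesis genes measured in NAPH, 7 were higher and 0 lower, with a median log2 ratio of 0.37. Pmvk exceeded the rest, at 949 CPM in Lrg1-high and 469 CPM in Lrg1-low cells. It had 0, 5.79 and 81.6 UMIs per 10,000 as lowest, median and highest level in Lrg1-high cells and 0, 2.63 and 57.3 in Lrg1-low cells. Its ratio was 2.02 (1.94 to 2.11), against 1.53 (1.44 to 1.63) for Fdps and 1.70 (1.38 to 2.13) for Lss, enzymes further down the pathway. The kinase just before it, Mvk, had 1.13 (0.928 to 1.37), and the decarboxylase just after it, Mvd, had 1.28 (1.08 to 1.52). Srebf2, which encodes the regulator of this pathway, had 1.06 (0.933 to 1.20). Plin2, which coats lipid droplets, was at 141 CPM in Lrg1-high and 79.5 CPM in Lrg1-low cells. It was the 1 higher gene among 16 of fatty acid oxidation and lipid storage, where 0 were lower.

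Surfactant and lamellar body genes differed little. Of 20 measured in NAPH, 1 was higher and 2 were lower, with a median log2 ratio of 0.02. The surfactant proteins Sftpd and Sftpb had ratios of 1.25 (1.23 to 1.27) and 1.16 (1.15 to 1.17), and Sftpa1 had 0.996 (0.990 to 1.0). Fabp5, a fatty acid carrier, was the higher gene, at 2676 CPM in Lrg1-high and 1665 CPM in Lrg1-low cells. Ctsh, the cathepsin that processes surfactant proteins B and C, was lower, with 0, 8.07 and 30.9 UMIs per 10,000 as lowest, median and highest level in Lrg1-high cells and 0, 12.7 and 59.7 in Lrg1-low cells. Its ratio was 0.626 (0.609 to 0.645). Among 14 lineage transcription factors, 0 were higher and 1 was lower, and Nkx2-1, the lung lineage factor, was at 343 CPM in Lrg1-high and 370 CPM in Lrg1-low cells.

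Of 22 unfolded protein response genes in NAPH, 5 were higher and 0 lower, and the other 17 lay between the thresholds, with a median log2 ratio of 0.32. Hspa5, the luminal chaperone BiP, was at 382 CPM in Lrg1-high and 251 CPM in Lrg1-low cells. Manf, a secreted stress factor, was at 284 CPM in Lrg1-high and 162 CPM in Lrg1-low cells. The stress-arm genes Ddit3, Atf3 and Trib3 had ratios of 0.961 (0.738 to 1.26), 0.939 (0.669 to 1.33) and 0.826 (0.545 to 1.26). After thinning, Ddit3 had 1.35 and Trib3 1.26. Among 23 NRF2 and glutathione genes, 1 was higher and 3 were lower, and the higher one was Gclc, the catalytic subunit of glutamate-cysteine ligase, at 765 CPM in Lrg1-high and 431 CPM in Lrg1-low cells. The pyruvate carboxylase Pcx, which feeds the citrate cycle, was at 114 CPM in Lrg1-high and 45.2 CPM in Lrg1-low cells. Respiratory chain genes had 0 of 22 past the threshold in either direction, with a median log2 ratio of 0.15.

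**Figure D3:**
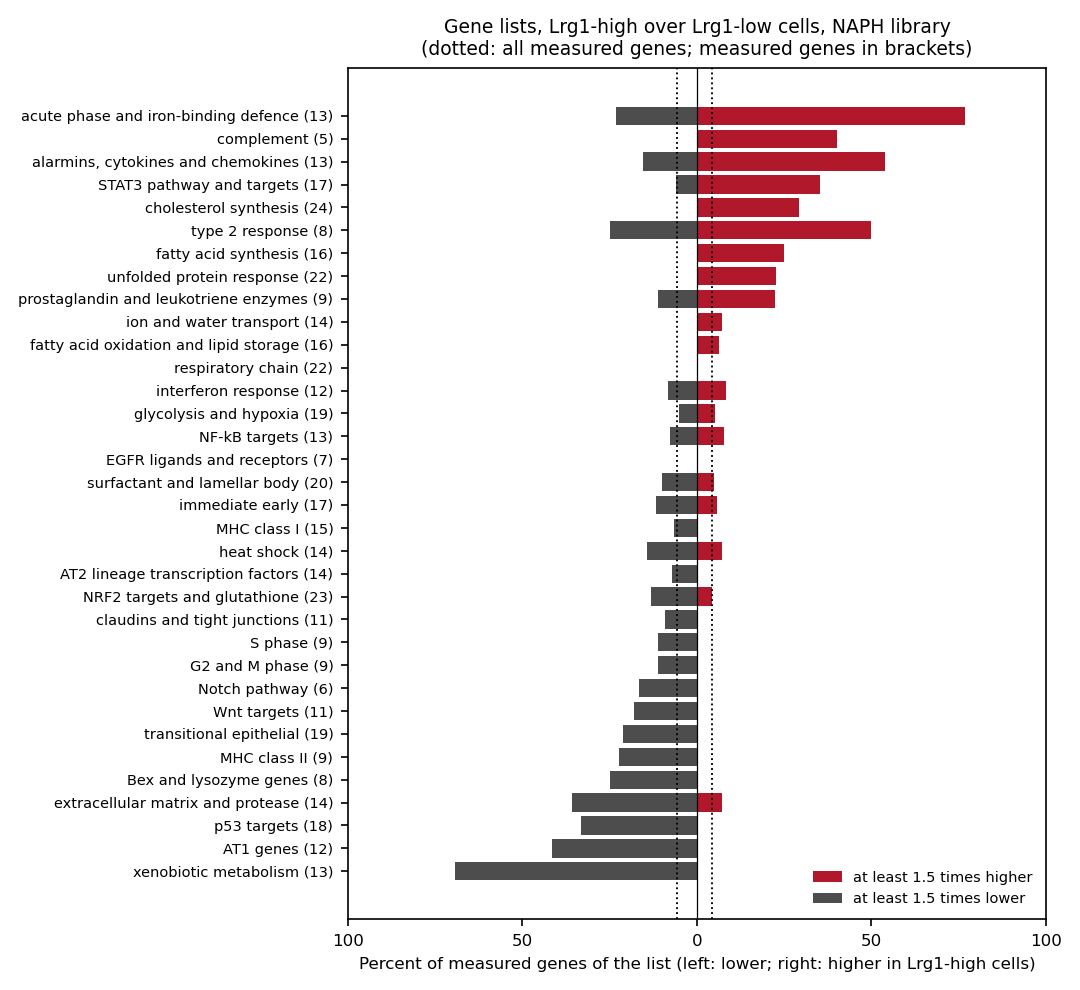
Percent of the measured genes of each list that were at least 1.5 times higher (right) or lower (left) in Lrg1-high than in Lrg1-low cells of NAPH. Dotted lines give the 4.33% higher and 5.74% lower among all measured genes. Acute phase genes reach furthest to the right (10 of 13 higher) and xenobiotic metabolism genes furthest to the left (9 of 13 lower).

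Of 17 genes of the STAT3 pathway and its targets, 6 were higher and 1 lower in NAPH, with a median log2 ratio of 0.04. The feedback inhibitor Socs3 was at 73.7 CPM in Lrg1-high and 41.3 CPM in Lrg1-low cells, a ratio of 1.79 (1.55 to 2.07). The kinase Pim1 was at 84.9 CPM in Lrg1-high and 40.3 CPM in Lrg1-low cells. Osmr, the oncostatin M receptor, was at 52.3 CPM in Lrg1-high and 29.5 CPM in Lrg1-low cells. Stat3 itself had a ratio of 1.14 (1.03 to 1.26), the shared receptor chain Il6st 0.926 (0.792 to 1.08) and Jak1 1.0 (0.836 to 1.21). Of 13 NF-kB targets, 1 was higher, the mitochondrial superoxide dismutase Sod2 at 297 CPM in Lrg1-high and 166 CPM in Lrg1-low cells, and 1 was lower, Traf1. Nfkbia, the inhibitor that NF-kB induces, had a ratio of 0.819 (0.734 to 0.914).

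The 15 highest genes also included receptors. The C-type lectin receptor Cd302 was at 178 CPM in Lrg1-high and 76.8 CPM in Lrg1-low cells, and the endocytic receptor Lrp2, megalin, had a ratio of 2.27 (2.09 to 2.48).

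The promoters of Lrg1, of the 15 highest genes and of Socs3 and Fgg were looked up because STAT3 is the known regulator of Lrg1. RefSeq (GRCm38.p6) gave windows of 300 bases around a start site for 15 of the 18 genes. The full palindrome TTCCNGGAA, which reads the same on both strands, was in 0 of these 15, against 1.35% of the 27025 genes with a window. The looser palindrome TTCNNNGAA, which contains the first and was searched after that result, was in the windows of Itih4 and Socs3, against 9.55% of those genes. Socs3 and Fgg had been added as listed STAT3 targets. With only 15 genes at these shares, matches in 0 and 2 of them cannot tell this set from genes in general. The windows shown are those of Lrg1 and of the genes with a match, each on its own strand with the match in capitals.
Lrg1, chr17:56121897-56122196, minus strand: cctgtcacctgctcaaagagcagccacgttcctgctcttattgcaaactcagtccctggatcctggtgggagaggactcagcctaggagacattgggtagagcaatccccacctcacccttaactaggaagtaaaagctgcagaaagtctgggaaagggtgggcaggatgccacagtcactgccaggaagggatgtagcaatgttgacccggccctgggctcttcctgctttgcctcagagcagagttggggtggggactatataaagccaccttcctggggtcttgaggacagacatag
Itih4, chr14:30886226-30886525, plus strand: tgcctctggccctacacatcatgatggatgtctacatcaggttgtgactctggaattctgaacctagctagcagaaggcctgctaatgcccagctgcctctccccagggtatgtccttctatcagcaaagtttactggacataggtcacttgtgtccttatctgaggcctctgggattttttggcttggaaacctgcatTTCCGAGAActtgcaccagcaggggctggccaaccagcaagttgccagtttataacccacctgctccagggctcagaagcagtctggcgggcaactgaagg
Socs3, chr11:117969317-117969616, minus strand: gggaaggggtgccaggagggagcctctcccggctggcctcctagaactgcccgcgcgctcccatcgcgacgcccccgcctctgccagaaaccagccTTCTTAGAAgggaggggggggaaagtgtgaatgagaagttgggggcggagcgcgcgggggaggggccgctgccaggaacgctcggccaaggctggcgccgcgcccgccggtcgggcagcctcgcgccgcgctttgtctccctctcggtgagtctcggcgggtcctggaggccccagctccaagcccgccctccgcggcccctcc
A match is a string of letters in this window and not a measured site.

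The genes lower in Lrg1-high cells of NAPH included markers of alveolar type 1 (AT1) cells, the flat cells that AT2 cells give rise to. Of 12 AT1 genes measured, 5 were lower and 0 higher, with a median log2 ratio of -0.45. The 5 were rare in AT2-gated cells, such as the anchoring protein Akap5 at 1.77 CPM in Lrg1-high and 10.5 CPM in Lrg1-low cells, and the mucin-type glycoprotein Pdpn at 1.87 and 5.67 CPM. The Akap5 ratio of 0.169 was 0.0913 after thinning, and the Pdpn ratio of 0.330 was 0.184 with an Lrg1 minimum of 30. The claudin Cldn18 had a ratio of 0.735 (0.703 to 0.767), and the receptor Ager 0.837 (0.816 to 0.858). Extracellular matrix and protease genes had 5 lower and 1 higher of 14, with a median log2 ratio of -0.46. Ndnf, a secreted neuron-derived neurotrophic factor, was at 18.3 CPM in Lrg1-high and 53 CPM in Lrg1-low cells, and the metalloprotease inhibitor Timp3 at 18.7 and 47.3 CPM. The protease inhibitor Serpine2 was the higher one, at 102 CPM in Lrg1-high and 54.3 CPM in Lrg1-low cells.

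Of 18 p53 targets, 6 were lower and 0 higher in Lrg1-high cells of NAPH, with a median log2 ratio of -0.25. Of the 18, 5 were within reach of free RNA. The kinase Plk2 was at 4.73 CPM in Lrg1-high and 21.2 CPM in Lrg1-low cells, while the cell cycle inhibitor Cdkn1a had a ratio of 0.698 (0.613 to 0.794). Of 19 genes of transitional epithelium, 4 were lower and 0 higher, but 8 of the 19 were within reach of free RNA. The rule had also set aside transitional cells, with Areg and Sprr1a summed at 5 or more, from both groups. Krt8, a keratin that marks that state, was at 234 CPM in Lrg1-high and 228 CPM in Lrg1-low cells, and its ratio of 1.03 was 0.739 with Lrg1-low cells set by the Sftpc and Lrg1 limits alone. The calcium-binding protein S100a6 was at 30.9 CPM in Lrg1-high and 166 CPM in Lrg1-low cells, against 6485 CPM in the ciliated gate, within reach of free RNA, and its ratio of 0.187 was 0.0966 with Lrg1-low cells set by those limits. Of 13 xenobiotic metabolism genes, 9 were lower and 0 higher, with a median log2 ratio of -0.69, but 6 of the 13 were within reach of free RNA. Aox3, an aldehyde oxidase outside that range, was at 31.3 CPM in Lrg1-high and 77.6 CPM in Lrg1-low cells. Of 9 MHC class II genes, 2 were lower and 0 higher, but 8 of the 9 were within reach of free RNA, and the invariant chain Cd74 had a ratio of 0.853 (0.840 to 0.866). In the same cells the summed leukocyte, club and goblet markers given above were also lower in the Lrg1-high group, and their part was not tested.

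The other lists had at most 2 genes past the threshold in either direction in NAPH. Of 5 complement genes, 2 were higher and 0 lower, with C3, the central component, at 101 CPM in Lrg1-high and 60.1 CPM in Lrg1-low cells. Of 15 MHC class I genes, 0 were higher and 1 was lower, and the light chain B2m had a ratio of 0.873 (0.833 to 0.915). Of 12 interferon response genes 1 was higher and 1 lower, and of 17 immediate early genes 1 was higher, Klf2, and 2 were lower. Heat shock genes had 1 higher and 2 lower of 14, and genes of glycolysis and hypoxia 1 and 1 of 19. The 9 S phase and 9 G2 and M phase genes had 1 lower each and 0 higher, and the rule had set aside cycling cells. Wnt targets had 2 lower of 11, the Notch pathway 1 of 6, tight junction genes 1 of 11, and Bex and lysozyme genes 2 of 8, with 0 higher in each. Ion and water transport had 1 higher of 14, Slc26a4, and EGFR ligands and receptors 0 of 7 in either direction.

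The 15 lowest genes at 100 CPM or more ranged from Anxa5 at 0.453 to Gltscr2 at 0.654. Anxa5, a phosphatidylserine-binding annexin, had 0, 0.902 and 6.47 UMIs per 10,000 as lowest, median and highest level in Lrg1-high cells of NAPH and 0, 1.74 and 20.6 in Lrg1-low cells, a ratio of 0.453 (0.420 to 0.489). The small heat shock protein Cryab was at 50.4 CPM in Lrg1-high and 104 CPM in Lrg1-low cells, and the secreted Igfbp7 at 164 and 309 CPM. Stmn1, which destabilises microtubules, had a ratio of 0.583 (0.543 to 0.626). Bex2 was at 126 CPM in Lrg1-high and 222 CPM in Lrg1-low cells, a ratio of 0.568 (0.526 to 0.613), and has near copies in the Bex family. The others were Mettl7a1, Zfos1, Lmo7, the histone Hist1h2bc, Chia1, Ctsh, the adhesion molecule Cadm1, Ypel3 and the translation factor subunit Eif3e.

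Among the members themselves, several of these levels followed Lrg1 further. NAPH had 542 members with Lrg1 from 20 to 40, 368 from 40 to 80 and 54 at 80 or more, beside 693 Lrg1-low and 750 Lrg1-intermediate cells. In the order Lrg1-low, intermediate, 20 to 40, 40 to 80 and 80 or more, Lcn2 was at 1467, 2860, 3693, 4626 and 5760 CPM. Il33 was at 360, 732, 902, 1143 and 1207 CPM in the same order, and Dmkn at 34.8, 110, 175, 239 and 367 CPM. These 3 genes were highest in the bin with most Lrg1. Scd1 was at 6957, 10823, 13334, 14813 and 13386 CPM and Hdc at 118, 244, 360, 464 and 463 CPM, so both had their top value by the bin from 40 to 80. Sftpc was at 202828, 202711 and 203203 CPM in the 3 member bins, and Anxa5 at 120, 111 and 108 CPM. Since every bin is cut on Lrg1 within 1 library, these orders are descriptions over cells of that library.

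**Figure D4:**
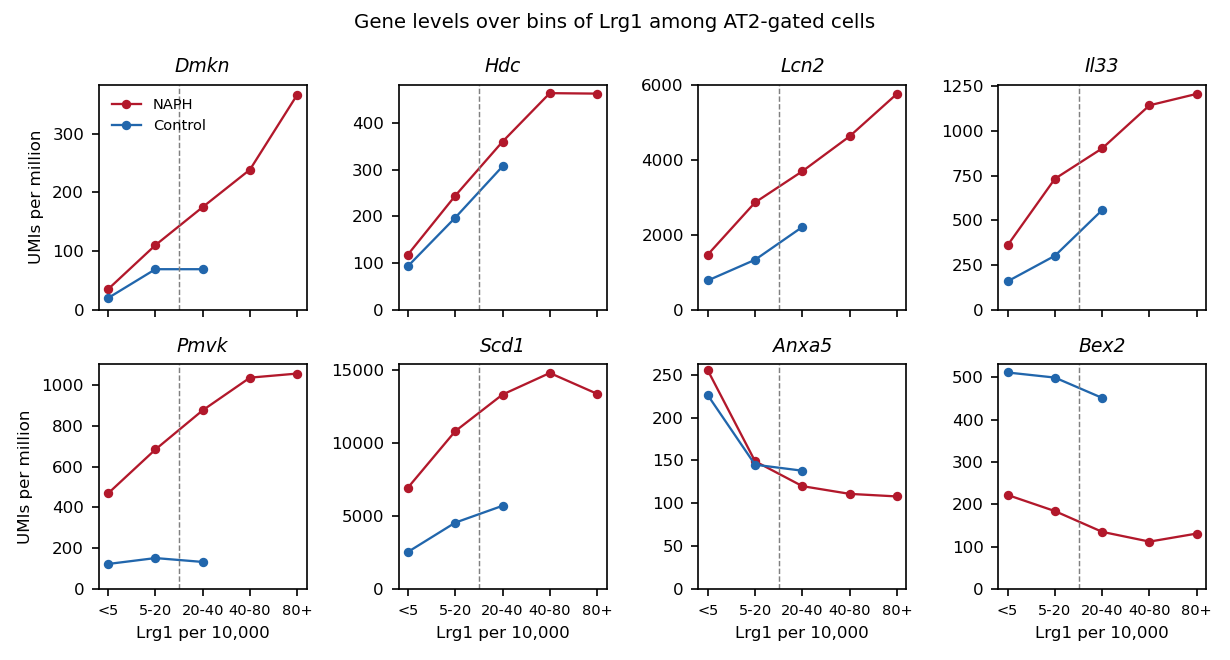
Summed levels in CPM of 8 genes over bins of Lrg1 per 10,000 in AT2-gated cells of NAPH and Control. The dashed line marks the minimum for Lrg1-high cells. Bins of fewer than 20 cells are left out, which keeps 3 Control bins. Lcn2 reaches 5760 CPM in the top NAPH bin, and Pmvk stays between 123 and 152 CPM in Control.

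In Control the members numbered 24 and, like those of NAPH, had more Lcn2, Il33, Itih4, Hdc and Scd1 than Lrg1-low cells. At the 1.5-fold threshold, 17.4% of the 8920 genes measured were higher and 17.6% lower than in Lrg1-low cells of Control. Of the 8920, 798 had 0 UMIs in the 24 cells, and 743 of these were too rare in Lrg1-low cells to give a fold against a floor of 3 UMIs. Of the 3124 genes past the threshold, the counting interval left out 1 for 389 (12.5%), against 819 of 951 (86.1%) in NAPH, so most Control calls lie within counting error. Among the 400 genes with at least 50 UMIs expected in the 24 cells, 13 were higher and 16 lower, a floor chosen after seeing the data. Of all genes past the threshold 49.6% were higher, and 37.7% were with TMM scaling, which shifted all genes by -0.14 on the log2 scale. Lcn2 had 2.73, 20.9 and 69.9 UMIs per 10,000 as lowest, median and highest level in the 24 cells and 0, 5.57 and 108 in the 1613 Lrg1-low cells of Control. Its sums were 2244 CPM in Lrg1-high and 776 CPM in Lrg1-low cells, a ratio of 2.89 (2.63 to 3.17). Il33 was at 559 CPM in Lrg1-high and 158 CPM in Lrg1-low cells of Control, a ratio of 3.53 (2.91 to 4.24), and was found in 21 of the 24 cells. Itih4 had a ratio of 4.55 (3.44 to 5.92), Gclc 3.53 (2.94 to 4.21; 2.30 after thinning) and Hdc 3.47 (2.69 to 4.42). Retnla had 4.82 (3.29 to 6.85), but its 34 UMIs came from 4 cells and 20 of them from 1 cell, and thinning gave 8.24. The rarer Mfsd2a and Ptges had larger ratios in Control, on few UMIs. Mfsd2a had 19 UMIs in 10 of the 24 cells and 57 UMIs in 46 of the 1613 Lrg1-low cells. Ptges had 14 UMIs in the 24 cells and 136 in Lrg1-low cells.

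Scd1 was at 5567 CPM in Lrg1-high and 2548 CPM in Lrg1-low cells of Control, a ratio of 2.19 (2.06 to 2.31), and Fasn had 1.78 (1.53 to 2.05). Pmvk was at 129 CPM in Lrg1-high and 123 CPM in Lrg1-low cells of Control, a ratio of 1.05 (0.693 to 1.52) that was 0.546 after thinning. Slpi had a ratio of 1.03 (0.559 to 1.73) on 14 UMIs. The 5 lowest genes in Control were Lyz1 at 0.155 (0.126 to 0.188), the mitochondrial isocitrate dehydrogenase Idh2, the sterol sensor Insig1, the matrix protein Sparc and the immediate early factor Jun. Idh2, Insig1 and Sparc rested on 9, 8 and 20 UMIs in the 24 cells. The Sparc ratio of 0.395 was 0.196 and the Insig1 ratio of 0.361 was 0.598 with an Lrg1 minimum of 30, which left 7 members. Of the 101 Lyz1 UMIs in the 24 cells, 46 came from 1 cell. The Lyz1 ratio was 0.411 with an Lrg1 minimum of 15 and 0.0203 with 30, and Lyz1 reached 805 UMIs per 10,000 in a single Lrg1-low cell. Lyz1 has a near copy in Lyz2, which was at 43302 CPM in Lrg1-high and 35974 CPM in Lrg1-low cells of Control.

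**Figure D5:**
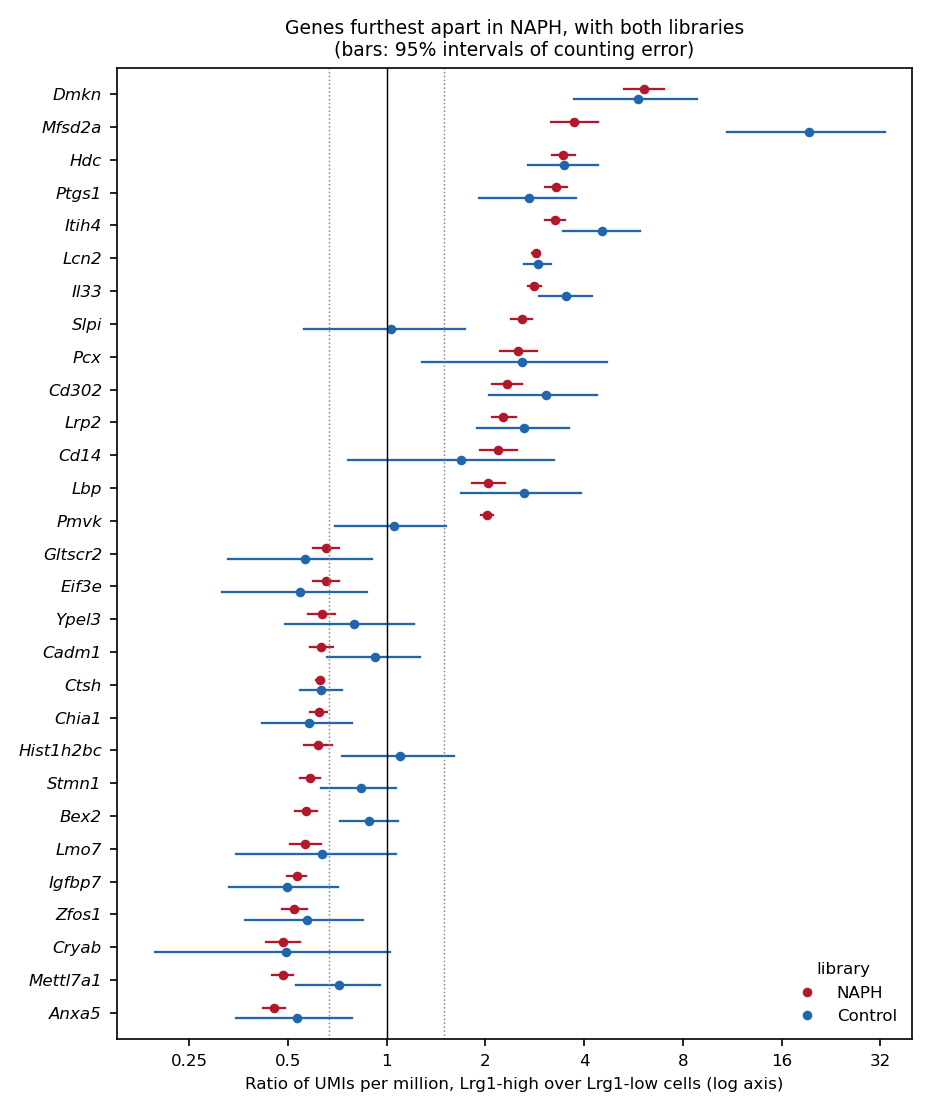
Ratio of CPM in Lrg1-high over Lrg1-low cells (log axis) for genes named among the 15 highest and 15 lowest of NAPH, with the same genes in Control. Points are ratios, bars are 95% intervals of counting error, and dotted lines mark 1.5-fold. Lcn2 has 2.85 in NAPH and 2.89 in Control, while Pmvk has 2.02 in NAPH and 1.05 in Control.

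Over the 8813 genes measured in both libraries, 301 were higher in Lrg1-high cells of NAPH and 1530 in those of Control. They shared 146 genes. These were 48.5% of the NAPH list, where 17.4% of all 8813 genes were higher in Control. They were 9.54% of the Control list, where 3.42% of all 8813 genes were higher in NAPH. Of the genes lower in Lrg1-high cells, NAPH had 466 and Control 1573, with 135 shared. The shared genes were 29.0% of the NAPH list, where 17.8% of all were lower in Control. They were 8.58% of the Control list, where 5.29% of all were lower in NAPH. In the opposite direction in Control stood 21 of the 301 NAPH-higher genes, where 17.8% of all were lower in Control. The same held for 59 of the 466 NAPH-lower genes, where 17.4% of all were higher in Control. The gene lists gave medians in Control of 0.94 for acute phase, 0.77 for alarmins, 0.54 for complement, 0.51 for fatty acid synthesis, 0.47 for cholesterol synthesis, 0.43 for prostaglandin enzymes, 0.0 for the unfolded protein response and -0.72 for extracellular matrix on the log2 scale. Genes at 0 UMIs entered at their bound, or at 0 where they gave no fold, and the median of all genes was then 0.0, against -0.05 with their observed ratios. Of 15 MHC class I genes, 7 were higher and 0 lower in Control, with a median of 0.53, against 0 higher and 1 lower in NAPH. That median was 0.28 after thinning and 0.27 with an Lrg1 minimum of 30. Of 9 S phase genes, 1 was higher and 5 were lower in Control, each on at most 5 UMIs in the 24 cells. Their median of -0.60 was -0.18 after thinning and 0.0 with an Lrg1 minimum of 15. Members of the matrix list with more UMIs included Sparc, at 92.3 CPM in Lrg1-high and 234 CPM in Lrg1-low cells of Control.

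Lrg1-high cells of NAPH differed from Lrg1-high cells of Control in several abundant genes. By the 1.5-fold threshold, 21.6% of the 8450 genes measured were higher in NAPH and 13.9% lower. Of the 8450, 637 had 0 UMIs in Control members, and 563 of these gave no fold. The counting interval left out 1 for 397 of the 2995 genes past the threshold (13.3%). Among 456 genes with at least 50 UMIs expected in the 24 cells, 40 were higher and 7 lower. Among the genes named at 100 CPM or more and outside the reach of free RNA, Pmvk had the highest ratio. It was at 949 CPM in NAPH and 129 CPM in Control members, a ratio of 7.34 (5.08 to 11.1). A larger ratio was seen for Retnla, within reach of free RNA, with 20316 UMIs in NAPH and 34 in Control members. The rarer Slc26a4, with 820 and 2 UMIs, also had a larger ratio. The highest Pmvk level in a Control member was 4.37 UMIs per 10,000, below the NAPH median of 5.79. After thinning, the Pmvk ratio was 13.5. Slpi was at 370 CPM in NAPH and 64.6 CPM in Control members, a ratio of 5.72 (3.41 to 10.5; 3.69 after thinning). Scd1 was at 13914 CPM in NAPH and 5567 CPM in Control members, a ratio of 2.5 (2.36 to 2.65). Lcn2 and Il33 had ratios of 1.86 (1.70 to 2.04) and 1.81 (1.52 to 2.19), while Hdc had 1.26 (0.993 to 1.62) and Mfsd2a 1.18 (0.755 to 1.98; 2.49 with an Lrg1 minimum of 30).

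Others of the 10 highest between the libraries were Tfrc, the transferrin receptor, at 180 CPM in NAPH and 50.8 CPM in Control members, and Btg3, an antiproliferative gene, at 164 and 41.5 CPM. These 2 rested on 11 and 9 UMIs in Control. Serpine2, Idh2, Cd14, Sgpp2 and the proteasome subunit Psmb2 likewise each rested on 7 to 11 UMIs in Control. Lyz1 was at 1723 CPM in NAPH and 466 CPM in Control members, a ratio of 3.69 that was 1.47 with an Lrg1 minimum of 15 and 29.2 with 30. The lowest were Cst8, a cystatin, at 59.9 CPM in NAPH and 217 CPM in Control members, and Bex2, at 126 and 452 CPM, a ratio of 0.278 (0.227 to 0.346). Bex2 UMIs were found in 39.4% of NAPH and 91.7% of Control members, or 24.3% and 70.8% after thinning, against 1.12% and 2.17% of leukocyte-gated barcodes of NAPH and Control. The copper pump Atp7b, the neuritin Nrn1, Scgb1c1, the carboxylesterase Ces1d, the amino acid transporter Slc43a2, Bex4, the iron carrier Trf and the giant protein Ahnak made up the rest, from 0.376 to 0.521. The Nrn1 value rested on 25 UMIs in Control, 12 of them from 1 cell, and was 0.178 with an Lrg1 minimum of 30. Slc43a2 had 1.13 and Tfrc 2.34 with an Lrg1 minimum of 30, which left 7 Control members, and Psmb2 had 1.67 with a minimum of 15. Members of NAPH also had more Lrg1 than those of Control, at 4318 and 2862 CPM. With members limited to Lrg1 below 40 in both libraries, the ratio was 6.61 for Pmvk, 2.34 for Scd1, 1.67 for Lcn2, 1.62 for Il33 and 0.300 for Bex2.

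The Lrg1-low cells of both libraries give the same genes in other cells. Here 6.63% of 9708 genes were higher and 3.13% lower in NAPH. Pmvk was at 469 CPM in NAPH and 123 CPM in Control Lrg1-low cells, a ratio of 3.80 (3.57 to 4.04). Scd1 was at 6957 CPM in NAPH and 2548 CPM in Control Lrg1-low cells, a ratio of 2.73 (2.69 to 2.77). Lcn2 had 1.89 (1.84 to 1.95), Il33 2.27 (2.14 to 2.42) and Bex2 0.434 (0.409 to 0.460). Sftpd was at 5610 CPM in NAPH and 4126 CPM in Control Lrg1-low cells, beside 7010 and 4229 CPM in the members. Lyz1 went the other way in these cells, at 1316 CPM in NAPH and 3010 CPM in Control.

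Members of NAPH held a larger part of some RNAs than their 26.4% of the library's UMIs. They held 51.9% of the library's Il33 UMIs, 52.1% of its Lcn2 UMIs, 53.8% of its Itih4 UMIs and 48.7% of its Scd1 UMIs. They also held 39.1% of its Sftpb and 36.2% of its Sftpa1 UMIs, AT2 genes that differed little between Lrg1-high and Lrg1-low cells. Within AT2-gated cells of NAPH they held 42.7% of all UMIs, 67.5% of Dmkn UMIs and 54.6% of Pmvk UMIs. There the shares were 57.2% for Il33, 58.2% for Lcn2, 58.8% for Itih4 and 53.3% for Scd1. Sftpb and Sftpa1 stood at 45.1% and 42.8%. The 154 transitional cells of NAPH, which also passed the Sftpc gate, had Areg and Sprr1a summed at 5 or more and Lrg1 at 1988 CPM. Those transitional cells were lower than members in Scd1 (9172 CPM against 13914 CPM) and in Lcn2 (2538 CPM against 4179 CPM). They were higher than members in Krt8 (1028 CPM against 234 CPM), Ndnf (159 CPM against 18.3 CPM) and Il6 (66.3 CPM against 18.5 CPM). Since both gates were cut on expression in 1 library, these differences are described and were not tested.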

How the data were processed

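The deposited tables hold raw UMI counts per gene and barcode for each library, made by the authors with Cell Ranger on mm10, per the submitters' processing notes; the version was not given there. Counts from such a pipeline collapse reads that share a molecular identifier. Barcodes were gated on UMIs per 10,000, and UMIs were summed over the cells of a gate and scaled to CPM. Ratios carry exact conditional Poisson intervals (95%) and shares exact Clopper-Pearson intervals, from scipy 1.17.1. A gene was measured with at least 50 UMIs over both groups and called at 1.5-fold. A gene at 0 UMIs in a group was set against a floor of 3 UMIs, which bounds the ratio in 1 direction, and was called only where the bound passed the threshold. Library totals were 38497783 UMIs in NAPH and 41699755 in Control. The ratio code was tested on simulated data. Scrublet (in scanpy 1.11.5) called too few doublets by its automatic threshold, so barcodes were ranked by its score and kept, and leaving them out was an alternative. Genes named have 100 CPM in a group and are the 15, 5 and 10 highest and lowest of the comparisons within NAPH, within Control and between libraries, outside the rule genes and free RNA. Members of 34 gene lists are named too. Some genes that the rule names are not reported here. Some were chosen for their role after their values were seen. Members and lists were chosen with earlier results of these data known. Alternatives included other Lrg1 and Sftpc minimums, thinning, edgeR 4.0.16 TMM factors and other UMI floors. For ratios after thinning the gates were applied again to the thinned counts, which gave 970 members in NAPH and 29 in Control. Ratios of single genes under an alternative had no UMI floor. How reads were split among near-identical genes (Lyz1 and Lyz2, Orm1 and Orm2, the Bex family, Ces1d and its relatives) is uncertain.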

Additional observations from a re-analysis of the deposited data

Results flagged for a closer look

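Lyz1, a lysozyme gene with a near copy in Lyz2, lay on opposite sides of 1 in the libraries. Its ratio of Lrg1-high over Lrg1-low cells was 1.31 in NAPH and 0.155 in Control, with counting intervals that did not overlap 1. It was the 1 gene of 40 compared for which this was so, and the difference between the libraries was not tested. In Control, 11 of the 24 Lrg1-high cells had a Lyz1 UMI, and 1 cell held 45.5% of the UMIs. The upper quartile of Lyz1 was 1.64 and 1.43 UMIs per 10,000 in Lrg1-high and Lrg1-low cells of NAPH, with highest cells at 452 and 412. In Control it was 1.35 and 2.32, with highest cells at 66.9 and 805. The counting intervals do not cover how many such high cells fell among the 24. Lyz1 UMIs were found in 55.0% of Lrg1-high and 46.6% of Lrg1-low cells of NAPH, and in 45.8% of Lrg1-high and 48.9% of Lrg1-low cells of Control. After thinning to 3500 UMIs these shares were 32.2% and 29.9% in NAPH and 20.8% and 35.5% in Control, beside 15.8% of leukocyte-gated barcodes in NAPH and 16.4% in Control.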

How the results depend on the processing

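The ratio of shares was 66.7 with an Lrg1 minimum of 30 (630 of 2407 cells in NAPH, 7 of 1785 in Control) and 23.4 to 29.7 under the other alternatives. Of 951 genes past the threshold within NAPH, the count was 1522 with at least 20 UMIs, 347 with at least 200, 225 at a fold of 2 and 474 with 50 UMIs expected in the smaller group. Within Control it was 3124, against 1409 with at least 200 UMIs, 1375 at a fold of 2 and 29 with 50 expected. Between libraries it was 2995, against 1249, 1345 and 47 under those settings. With an Lrg1 minimum of 30, 72.7% of the genes past the threshold within Control were higher, against 49.6%. That setting measured 8901 genes, against 8920, with 2354 higher and 883 lower, against 1550 and 1574. The floors of 200 UMIs and of 50 expected UMIs measured fewer genes by construction. The floor of 20 UMIs measured more, and the fold of 2 used the same genes. Of the named ratios past 1.5-fold, those that changed direction were Saa3 (3.37, Lrg1-low below 2), Ltf (2.52, thinned) and Slc43a2 (1.13, Lrg1 minimum 30), and the cause was not tested. Some ratios within 1.5-fold also crossed 1, among them Ddit3 (1.35, thinned), Trib3 (1.26, thinned), Krt8 (0.739, Lrg1-low with the Sftpc gate only) and, in Control, Pmvk (0.546, thinned). Depth limits every value from the 24 Control members. The 50-UMI floor, the Lrg1 limit of 40 and leaving out shared barcodes were chosen after seeing the data. No paired analysis was possible because each group has 1 library.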

Other observations

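Of the transitional cells of NAPH, which the rule keeps apart for Areg and Sprr1a, 32.5% had Lrg1 of at least 20. They had Anxa5, the phosphatidylserine-binding annexin, at 386 CPM, against 116 CPM in Lrg1-high and 255 CPM in Lrg1-low cells. Their Ctsh was at 1721 CPM, against 919 CPM in Lrg1-high and 1467 CPM in Lrg1-low cells. Mettl7a1, among the lowest genes of the members, was at 281, 200, 162, 109 and 61.4 CPM from Lrg1-low cells to those with Lrg1 of 80 or more in NAPH. The chaperone Manf was at 162, 214, 250, 307 and 450 CPM in the same order.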
